A study of Mus musculus with 6 samples.

Results

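*Bhlhe41* and *Bhlhe40*, the genes of the transcriptional repressors DEC2 and DEC1, are described here with 8 genes of the circadian clock, *Per1*, *Per2*, *Per3*, *Cry1*, *Cry2*, *Clock*, *Nr1d1* and *Dbp*, in the retinal pigmented epithelium (RPE) of the mouse embryo. Probe sets annotated with exactly 1 gene symbol were taken where that symbol was 1 of these 10. This gave 10 probe sets, 1 for each gene, of 21789 probe sets with a single symbol. *Bhlhe41* was chosen by its difference in the comparison reported below, so its values are given as a description without a test. The other 9 genes were listed for their function.

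The RPE is the pigmented cell layer behind the neural retina, and the study asked what the transcription factor PAX6 does in it. RPE was dissected at E15.5 from embryos on a C57BL/6J background and hybridized to Affymetrix Mouse Gene ST arrays, 3 of them labelled control and 3 labelled mutant. Both groups carry *Pax6loxP/loxP*, in which *loxP* sites flank the part of *Pax6* that encodes the paired domain. The mutant also carries *DctCre*, a Cre transgene under the promoter of the melanogenic gene *Dct*, and the controls are littermates without Cre. Transcripts lacking the paired domain are still made in the mutant, so the model removes full-length PAX6 only. RPE of several embryos was pooled into a pair of separate tubes by how strongly it was pigmented, and each tube was 1 biological repeat. Whether a control and a mutant tube of the same harvest carry the same replicate number is not stated. The hour of dissection is not given in the sources used here. Because each array measured bulk tissue, fewer cells of a type and less RNA per cell cannot be told apart.

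In the clock of most mammalian cells, CLOCK and its partner ARNTL (BMAL1) bind E-box sequences and activate the *Per* and *Cry* genes, whose proteins return to inhibit CLOCK and ARNTL. NR1D1 (REV-ERBα) represses *Arntl*, DBP activates genes with D-box sequences, and DEC1 and DEC2 bind E-boxes and repress genes that CLOCK and ARNTL activate. Outside the clock, the RPE makes its pigment under the transcription factor MITF, and the DEC proteins belong to the same basic helix-loop-helix class of E-box binding factors, in the Orange-domain group that also holds the HES and HEY repressors.

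Promoter windows from RefSeq (GRCm38.p6) were read to show where an E-box lies in front of these genes. A window spans 250 bases before a transcription start and 50 after it. *Bhlhe40* and *Per2* are named only, and 8 of the 10 genes had at least 1 window. The E-box CACGTG, a palindrome and so the same on both strands, was found in the windows of 3 of these 8 genes, *Bhlhe41*, *Per1* and *Cry1*. The 8 genes had 11 windows, of which 3 held it, and 7.15% of all 32851 windows did. The 250 bases before the *Bhlhe41* start are shown whole, since this is the gene with the largest difference among the 10 (chr6:145865421-145865670, minus strand), and 60 bases around the E-box are shown for *Per1* (chr11:69098756-69098815, plus strand) and for *Cry1* (chr10:85185082-85185141, minus strand). Each is written 5′ to 3′ on the strand of its gene, with the E-box in capitals.
Bhlhe41: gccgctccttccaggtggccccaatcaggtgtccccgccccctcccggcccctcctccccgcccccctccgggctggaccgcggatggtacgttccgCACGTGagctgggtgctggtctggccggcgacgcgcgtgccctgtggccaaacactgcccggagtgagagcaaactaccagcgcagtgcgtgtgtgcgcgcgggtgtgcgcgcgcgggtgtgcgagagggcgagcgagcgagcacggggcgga
Per1: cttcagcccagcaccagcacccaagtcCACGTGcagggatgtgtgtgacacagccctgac
Cry1: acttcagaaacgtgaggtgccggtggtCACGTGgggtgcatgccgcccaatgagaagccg

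The first base of the E-box stood 153 bases before the start in *Bhlhe41*, 166 in *Per1* and 60 in *Cry1*. The *Bhlhe41* stretch had a GC content of 73.6%. Searched on both strands, the variant E-box CATGTG was found in 3 of the 11 windows, those of *Per1*, *Cry2* and *Nr1d1*, beside 14.2% of all windows. The D-box TTATGTAA was found in 1 window, that of *Per3*, at 158 and at 205 bases before the start, beside 0.938% of all windows. The nuclear receptor half-site AGGTCA was found in 2 windows, of *Per1* and *Clock*, beside 16.3% of all windows, and the cAMP response element TGACGTCA in 0 of the 11, beside 1.79%. These are matches of letters, and binding was not measured.

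The deleted gene, *Pax6*, had a control-labelled log2 signal of 9.15, 9.02 and 9.22 and a mutant-labelled signal of 8.998, 8.97 and 8.74. Its log2 difference, labelled mutant minus labelled control as for all signed values here, was -0.23 (SE 0.09, adjusted p = 0.73 from limma). The direction of all signed values here is opposite to that of the deposited list of genes past the study's threshold. Of 90 entries of that list matched to a probe set, 0 had both group means within 0.1 log2 units of the arrays as labelled, and 90 had them with the group names exchanged. Entries were matched by symbol or accession, since only 4 of the 90 carried their own probe set number. *Bhlhe41* is among these entries by its symbol, the authors' means for it being 7.31 for control and 6.35 for mutant. The number of its probe set stands on another entry without a symbol. The means there, 3.24 for control and 2.58 for mutant, are far from the *Bhlhe41* values of the arrays. Which set of names belongs to the original samples was not traced, so arrays are named here by their labels. The exchange touches every direction given here. The pigment cell genes *Tyrp1* and *Pmel*, for example, were 0.94 and 0.68 log2 units higher with the mutant label. Measurements by QRT-PCR, in situ hybridization and antibody labelling in these mice, not analysed here, run with the names of the deposited list. The probes of the *Pax6* probe set were not placed against the deleted exons, so its level checks the labels only in part.

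The 6 arrays had median log2 signals between 4.86 and 4.93, and any pair of arrays correlated at r between 0.992 and 0.995 across probe sets. The pigment cell genes *Tyrp1*, *Pmel* and *Dct* had log2 signals above 9 on every array, while *Rpe65*, the retinoid isomerase of the mature RPE, was dim on all arrays (2.25 to 2.39). Some markers of other tissues were bright too. The mesenchymal genes *Col1a1* and *Pdgfra* had group means of 12.36 and 10.04 with the control label and 12.46 and 10.03 with the mutant label. The endothelial gene *Kdr* had 9.09 and 8.98. Summed log2 signals of 5 lens markers were 27.1, 26.8 and 28.1 with the control label and 30.0, 23.9 and 34.6 with the mutant label. The part of these tissues in the values of the 10 genes was not tested. Of 9 RPE markers, limma called 2 higher (*Rlbp1* and *Tyrp1*) and 1 lower (*Ttr*) on the arrays labelled mutant, beside 0.282% and 0.0812% of all tested probe sets. Their summed log2 signal was 69.3, 71.5 and 72.2 in the control-labelled group and 71.4, 72.2 and 72.5 in the mutant-labelled group. In these sums the difference of *Ttr*, -2.103, was set against higher signals of other markers with the mutant label. Of the 9 differences 7 lay above 0 and 2 below, with a median of 0.21, so the sums do not show that the markers were alike. Of 4 markers of the ciliary margin and iris, 1 was called higher, the smooth muscle gene *Myh11* (by 1.78, beside the same 0.282%). *Acta2*, *Msx1* and *Wls* of this list differed by 0.09, -0.05 and 0.06. The summed log2 signal of the 4 was 30.5 on each array labelled control and 32.1 to 32.5 on those labelled mutant. Most of this step was that of *Myh11*. For 7 of the 10 genes the mean signal was at or above the median of all tested probe sets, 5.70, and *Per2*, *Per3* and *Nr1d1* were below it.

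*Bhlhe41*, a repressor also known for a role in sleep length in humans and mice, was the gene of the 10 with the largest difference between the groups. Its log2 signal (probe set 10549276) was 6.12, 6.63 and 6.27 in the control-labelled group and 7.15, 7.43 and 7.36 in the mutant-labelled group. The groups did not overlap, and array 2 was the highest within each group. The group means were 6.34 ± 0.26 (SD, 3 arrays) and 7.31 ± 0.15 (SD, 3 arrays). The log2 difference was 0.97 (SE 0.13, 95% confidence interval from 0.66 to 1.28), a fold of 1.96 (1.58 to 2.43) higher on the arrays labelled mutant. As this difference is what *Bhlhe41* was selected on, it has no test here.

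*Bhlhe40*, the paralog of *Bhlhe41* and a repressor induced by many signals, was also higher on all 3 arrays labelled mutant, by a smaller step that did not pass the test. Its log2 signal (probe set 10540472) was 6.03, 6.21 and 6.26 in the control-labelled group and 6.40, 6.62 and 6.57 in the mutant-labelled group. The highest array labelled control lay below the lowest array labelled mutant. The log2 difference was 0.36 (SE 0.08, 95% confidence interval from 0.17 to 0.56, fold 1.28), with an unadjusted p of 0.0028 and an adjusted p of 0.27 from limma. Unadjusted p-values under 0.05 were found for 6.07% of all tested probe sets.

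The step of *Bhlhe41* exceeded that of *Bhlhe40* by 0.61 log2 units. Within each array the log2 distance between both probe sets has no meaning of its own, since probe sets differ in brightness, but it can be followed from array to array. It was 0.17 ± 0.22 (SD, 3 arrays) with the control label and 0.78 ± 0.03 (SD, 3 arrays) with the mutant label, and the groups did not overlap. This distance holds the value that *Bhlhe41* was selected on and is a description.

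**Figure D1:**
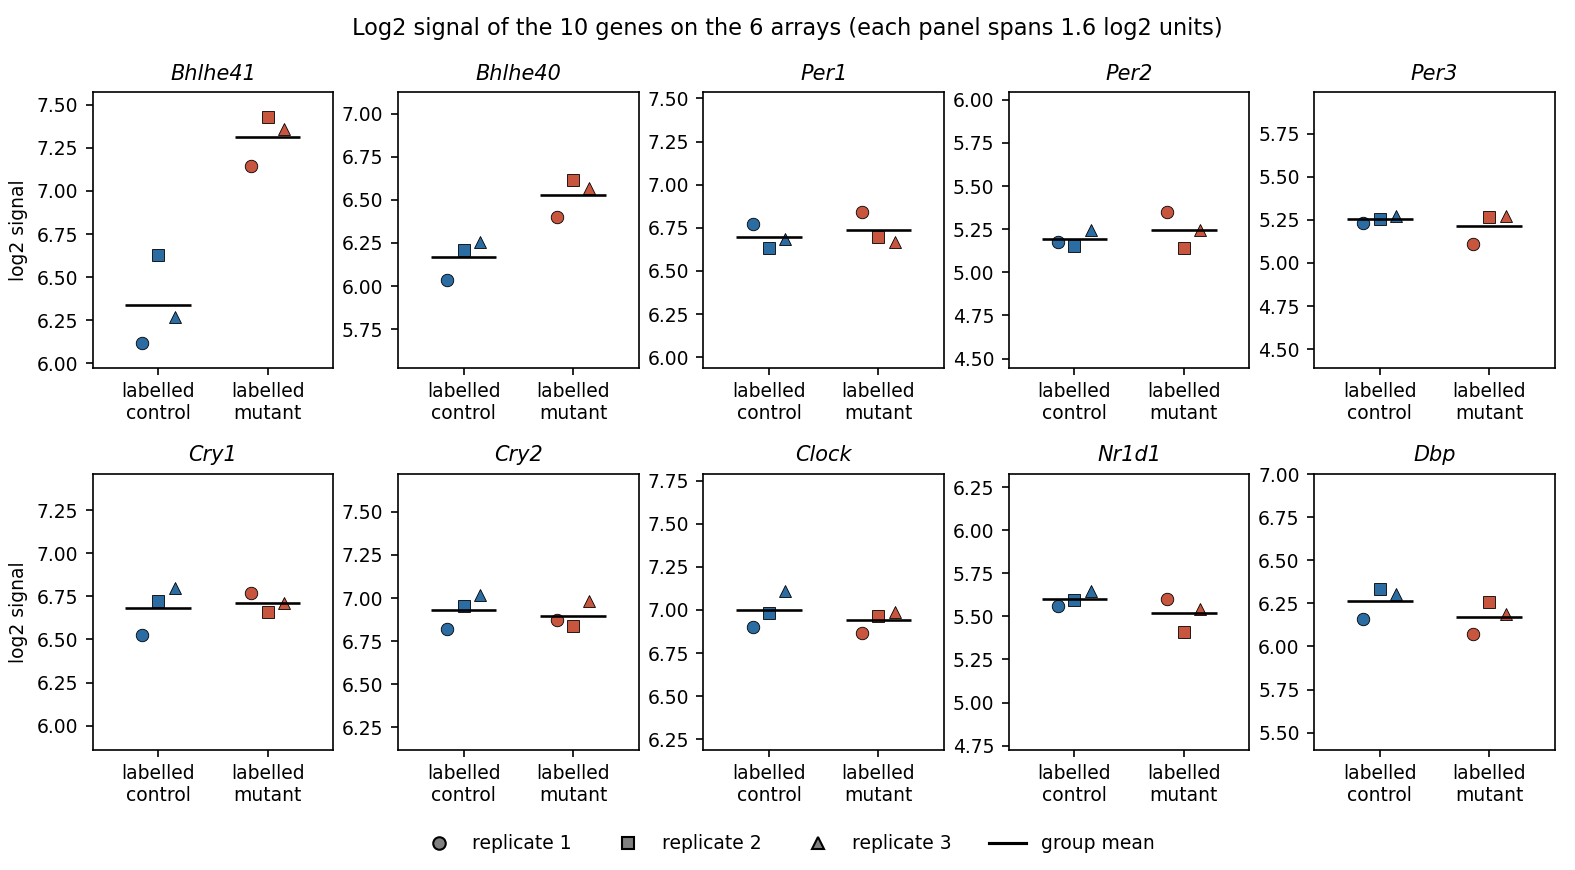
Log2 signal (vertical axis) of *Bhlhe41*, *Bhlhe40* and 8 clock genes on the 3 arrays labelled control (blue) and the 3 labelled mutant (red), with a marker for each array and a line for each group mean; each panel spans the same number of log2 units around its gene. The groups are apart for *Bhlhe41* (means 6.34 and 7.31) and *Bhlhe40* (6.17 and 6.53) and overlap in the other 8 panels.

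The 3 *Per* genes encode the PERIOD proteins, which inhibit CLOCK and ARNTL, and none of them differed detectably between the groups. *Per1*, which light and glucocorticoids can induce, had control-labelled log2 signals of 6.77, 6.63 and 6.68 and mutant-labelled ones of 6.84, 6.70 and 6.67. *Per2*, which is needed for a stable rhythm in mice, had 5.18, 5.15 and 5.25 against 5.35, 5.14 and 5.25. *Per3*, the member least needed for the rhythm itself, had 5.23, 5.26 and 5.27 against 5.11, 5.27 and 5.27. In each of the 3 genes the ranges of the groups overlapped, and array 1 labelled mutant stood farthest out, high for *Per1* and *Per2* and low for *Per3*. The log2 differences were 0.04 for *Per1* (95% confidence interval from -0.12 to 0.20), 0.05 for *Per2* (-0.11 to 0.21) and -0.04 for *Per3* (-0.19 to 0.11), each with an adjusted p of 0.99 from limma.

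The cryptochromes, which join the PER proteins in the inhibitory complex, did not separate the groups either. *Cry1* showed log2 signals of 6.53, 6.72 and 6.80 with the control label and 6.77, 6.66 and 6.71 with the mutant label. *Cry2* had 6.82, 6.95 and 7.02 against 6.87, 6.84 and 6.98. For both genes array 1 labelled control was the lowest and array 3 labelled control the highest of all 6, so that the control-labelled values enclosed the others. The log2 difference was 0.03 for *Cry1* (95% confidence interval from -0.15 to 0.22) and -0.03 for *Cry2* (-0.20 to 0.13), both with an adjusted p of 0.99 from limma.

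*Clock*, the activator of the loop, had control-labelled log2 signals of 6.90, 6.98 and 7.11 and mutant-labelled ones of 6.87, 6.97 and 6.99. The groups overlapped, and the log2 difference was -0.06 (95% confidence interval from -0.22 to 0.11, limma adjusted p = 0.99).

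*Nr1d1* and *Dbp* are direct E-box targets of CLOCK and ARNTL, and their transcripts swing widely over the day in many adult tissues. *Nr1d1* showed log2 signals of 5.56, 5.60 and 5.65 with the control label and 5.60, 5.41 and 5.54 with the mutant label. *Dbp* had 6.16, 6.33 and 6.31 against 6.07, 6.26 and 6.19. The groups of both genes overlapped, and array 2 labelled mutant was the lowest for *Nr1d1* while array 1 labelled mutant was the lowest for *Dbp*. These were the most negative differences of the 10 genes, at -0.08 for *Nr1d1* (95% confidence interval from -0.24 to 0.07) and -0.09 for *Dbp* (-0.27 to 0.08), each with an adjusted p of 0.97 from limma.

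**Figure D2:**
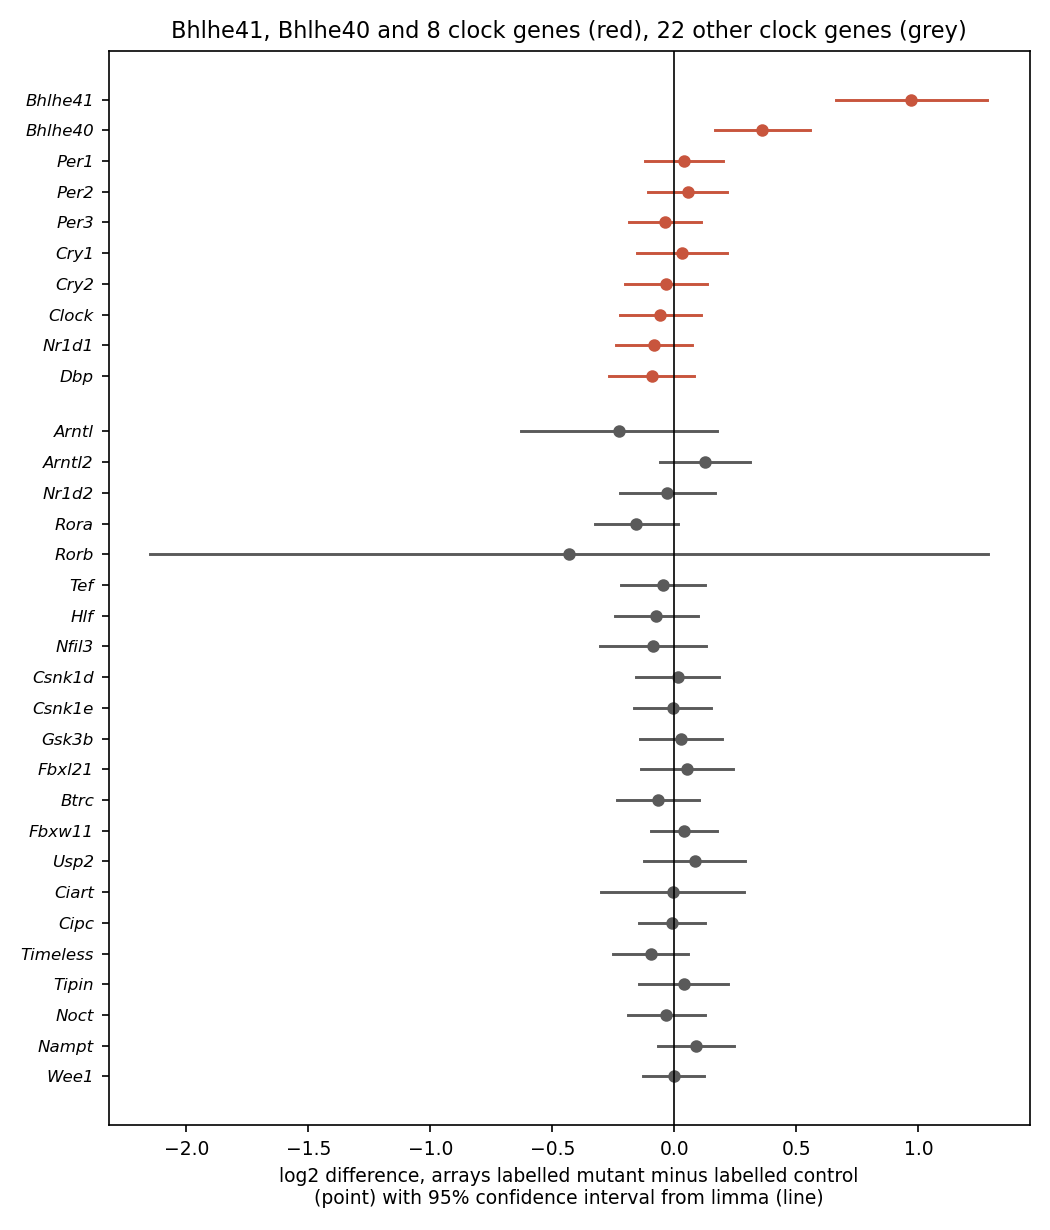
Log2 difference, arrays labelled mutant minus arrays labelled control (horizontal axis), for the 10 genes (red) and for 22 other genes of the clock (grey), with points for the limma estimate and lines for its 95% confidence interval. The interval of *Bhlhe41*, the gene chosen by this contrast, runs from 0.66 to 1.28 and is no test. That of *Bhlhe40* runs from 0.17 to 0.56, without adjustment for the number of probe sets (adjusted p = 0.27 from limma). The widest interval is that of *Rorb*, at a difference of -0.43.

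Of the 9 genes other than *Bhlhe41*, 0 passed an adjusted p of 0.05 in limma, and 1, *Bhlhe40*, had an unadjusted p under 0.05. The methods' t-test gave the same numbers, 0 after adjustment and 1 before it. Over all 23410 probe sets tested, limma called 85 (0.363%), of which 66 (0.282%) were higher and 19 (0.0812%) lower on the arrays labelled mutant, and the t-test called 0 after adjustment and 1319 before it. At these shares a count of 0 among 9 genes does not set them apart from the other probe sets. The groups did not overlap for *Bhlhe41*, which was chosen by this contrast. Of the other 9 genes they did not overlap for 1, *Bhlhe40*, beside 11.0% of all tested probe sets. A count of 1 among 9 is near this share. The median log2 difference was -0.002 over the 10 genes and -3.5e-05 over all tested probe sets, and 5 of the genes lay above 0 and 5 below.

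Without *Bhlhe41* and *Bhlhe40*, the 8 clock genes had differences from -0.09 to 0.05, with 3 above 0 and 5 below and a median of -0.04. Their 95% confidence intervals reached from -0.27 to 0.22, so that a fold of more than 1.20 lower or 1.16 higher lay outside every interval. This bounds the differences between the groups and does not show that the groups were alike. Across all 6 arrays the 8 genes spanned 0.17 to 0.27 log2 units each, with a median of 0.22, beside a median of 0.25 over all tested probe sets.

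Averages per array can hide members that go opposite ways, as *Per1* and *Per3* did on array 1 labelled mutant. The mean deviation of *Per1*, *Per2*, *Per3*, *Nr1d1* and *Dbp* from each gene's mean over the 6 arrays was -0.0096, 0.0049 and 0.042 in the control-labelled group and 0.0045, -0.035 and -0.0065 in the mutant-labelled group. The corresponding means of *Cry1* and *Cry2* were -0.13, 0.033 and 0.10 against 0.013, -0.058 and 0.042. Those of *Arntl* and *Clock* were 0.11, -0.060 and 0.17 against 0.020, 0.0088 and -0.24. Array 3 labelled control was the highest in all 3 sets, and the other arrays came in different orders.

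The wider clock was read from 22 other measured genes. Of these 22, limma called 0 in either direction, beside 0.363% of all tested probe sets. An unadjusted p under 0.05 was found for 0 in limma, beside 6.07%. In the methods' t-test it was found for 0, beside 1319 of all 23410. Groups that did not overlap were found for 0, beside 11.0%. Counts of 0 among 22 genes do not show that the wider clock was alike in both groups. Their differences ran from -0.43 to 0.12 with a median of -0.01, 8 above 0 and 14 below, and 20 lay within 0.2 of 0. By role, the smallest p-values belonged to *Arntl2*, a partner of CLOCK (0.12, adjusted p = 0.94), and to *Rora*, a nuclear receptor that activates *Arntl* (-0.16, adjusted p = 0.86). Among the outputs and modifiers they belonged to *Hlf*, a relative of *Dbp* (-0.07, adjusted p = 0.99), to *Usp2*, a ubiquitin protease (0.08, adjusted p = 0.99), and to *Timeless* (-0.10, adjusted p = 0.95).

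*Arntl*, the partner of CLOCK, and *Rorb*, a nuclear receptor expressed in the neural retina, lay outside 0.2 on the side below 0 and were looked at after their values were seen. *Rorb* had control-labelled log2 signals of 8.50, 6.16 and 8.01 and mutant-labelled ones of 8.17, 7.55 and 5.66 (difference -0.43, SE 0.74, adjusted p = 0.99). *Arntl* had 6.36, 5.95 and 6.27 against 6.22, 6.10 and 5.58 (difference -0.23, SE 0.17, adjusted p = 0.97). Its difference was -0.03 without array 3 labelled mutant and -0.35 without array 1 labelled mutant or array 2 labelled control. Both were lowest on array 3 labelled mutant and next lowest on array 2 labelled control, and *Clock* did not share this order.

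Markers of the neural retina, which lies against the RPE, moved over the arrays in the same way. Of 7 such markers 5 were measured (*Crx*, *Neurod1*, *Atoh7*, *Stmn2* and *Elavl3*), and none was called, beside 0.363% of all tested probe sets. Their summed log2 signal was 35.3, 26.9 and 31.9 in the control-labelled group and 34.2, 31.3 and 25.8 in the mutant-labelled group. The neuronal gene *Stmn2* had 8.43, 6.37 and 7.49 against 8.15, 7.45 and 6.26. The part of retinal tissue in the values of *Rorb* and *Arntl* was not tested. Within the control-labelled group *Bhlhe41* was lowest on array 1, the highest in these markers, and highest on array 2, the lowest in them. Within the mutant-labelled group *Bhlhe41* was also lowest on array 1, the highest in these markers. It was highest there on array 2, which was not the lowest in them. The part of retinal tissue in the value of *Bhlhe41* was not tested.

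**Figure D3:**
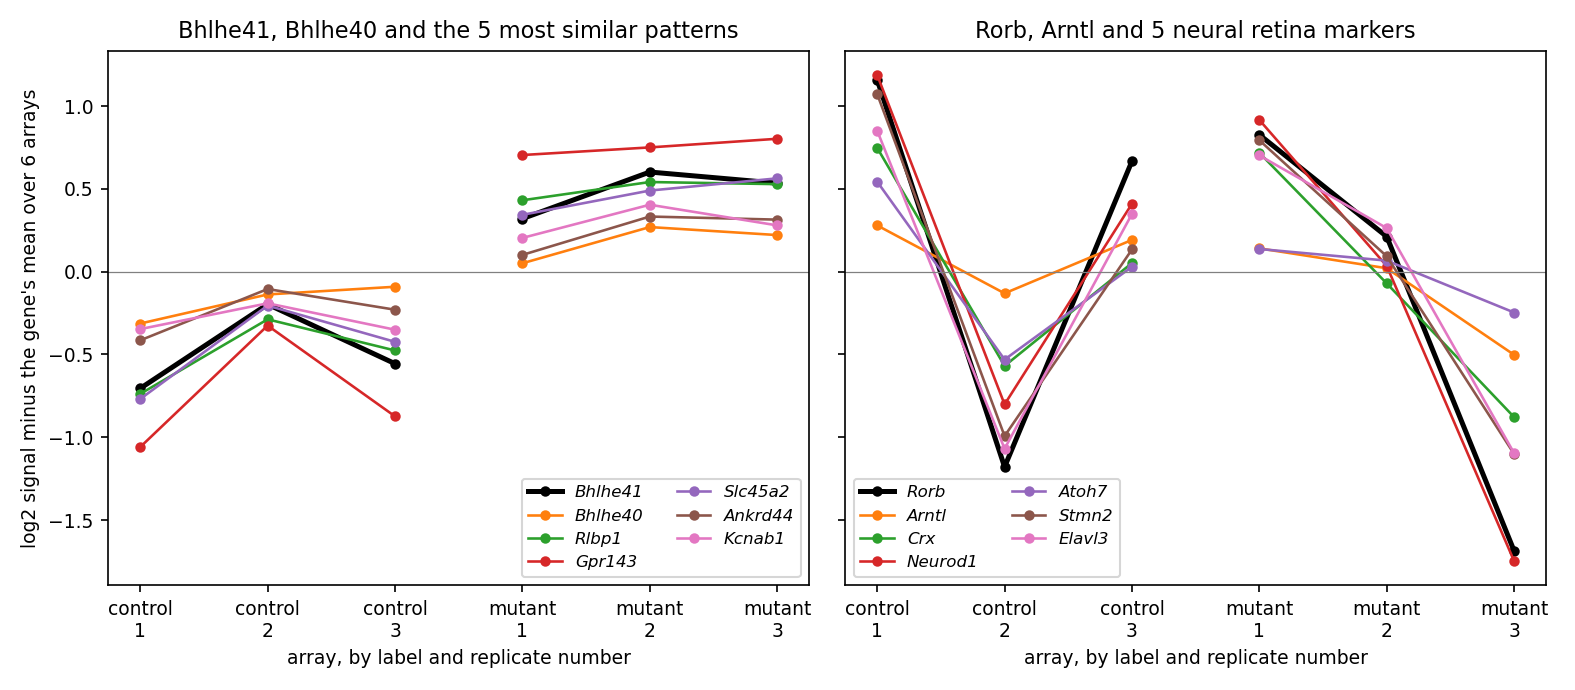
Log2 signal minus the gene's mean over the 6 arrays (vertical axis) on each array (horizontal axis), with lines that only join the points of 1 gene within a label, for *Bhlhe41*, *Bhlhe40* and the 5 genes with the most similar pattern (left) and for *Rorb*, *Arntl* and 5 neural retina markers (right). On the left all arrays labelled mutant lie above 0 and all labelled control below it; on the right array 1 of either label is high and arrays 2 labelled control and 3 labelled mutant are low.

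The genes whose pattern was most like that of *Bhlhe41* were read from the same 6 arrays, and so from the contrast it was chosen by. Among 436 probe sets with a single symbol and an SD over the 6 arrays of at least 0.3, the highest Pearson correlations with *Bhlhe41* were those of *Rlbp1* (r = 0.990), *Gpr143* (0.990), *Slc45a2* (0.989), *Ankrd44* (0.987) and *Kcnab1* (0.987), and 35 had an r above 0.95. These correlations are across 6 arrays in 2 separate groups, so each gene with a step between the groups and little spread within them scores high, and no p is given.

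*Rlbp1*, the retinaldehyde-binding protein of the RPE, showed log2 signals of 7.16, 7.61 and 7.42 with the control label and 8.33, 8.44 and 8.43 with the mutant label. *Gpr143*, the melanosome receptor mutated in ocular albinism, had 4.30, 5.03 and 4.48 against 6.06, 6.11 and 6.16. *Slc45a2*, a melanosome transporter, had 5.90, 6.46 and 6.24 against 7.01, 7.15 and 7.23. All 3 shared with *Bhlhe41* the order of the control-labelled arrays, with array 2 the highest and array 1 the lowest, and array 1 as the lowest of those labelled mutant. *Ankrd44* shared it too, while *Kcnab1* was lowest on array 3 labelled control (5.665, beside 5.669 on array 1). As these genes were picked by their correlation with *Bhlhe41*, a shared order follows in part from the choice. The log2 differences of *Rlbp1*, *Gpr143* and *Slc45a2* were 1.001, 1.505 and 0.93, beside 0.97 for *Bhlhe41*. *Ankrd44* and *Kcnab1*, a potassium channel subunit, differed by 0.50 and 0.59. The part of pigment cell content, or of ciliary margin and iris cells, in the value of *Bhlhe41* was not tested. *Bhlhe40* correlated with *Bhlhe41* at r = 0.944 but was not a candidate, since its SD over the arrays was 0.22.

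The step at *Bhlhe41* was not shared by the genes next to it in the RefSeq order, which were looked at after the values of *Bhlhe41* were seen. *Rassf8*, next to it on one side, had a log2 difference of 0.21 and *Tuba3b* beyond it 0.05, while *Sspn* on the other side had 0.13 and *Itpr2* beyond it 0.04, and the groups of all 4 overlapped. Beside *Bhlhe40*, *Sumf1* had a difference of -0.04 and *Edem1* 0.04, also with overlapping groups, and *Itpr1* and *Arl8b* were not analysed here.

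Of the 10 bHLH-Orange relatives of *Bhlhe41* and *Bhlhe40*, 1 was called and it was lower on the arrays labelled mutant, beside 0.0812% of all probe sets. This was *Hey2*, a Notch-induced repressor, with control-labelled log2 signals of 5.09, 5.49 and 5.35 and mutant-labelled ones of 4.39, 4.37 and 4.63. Its difference was -0.85 (SE 0.11, adjusted p = 0.028 from limma), opposite in sign to those of *Bhlhe41* and *Bhlhe40*. The call was lost without array 2 or 3 labelled control, without any 1 of the 3 arrays labelled mutant (adjusted p from 0.056 to 0.19), over all probe sets, unnamed ones included (0.14), and in the methods' t-test (0.56). Over the 13 alternatives that hold *Hey2* the adjusted p ran from 0.013 to 0.56 and the difference from -0.96 to -0.76. The median over the 10 relatives was -0.05, and *Hes1*, the relative best known as a Notch target, differed by -0.04.

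Among 9 measured genes of light input and melatonin, 1 was called, higher on the arrays labelled mutant, beside 0.282% of all probe sets. This was *Opn4*, the gene of melanopsin, the light-sensing pigment through which the adult retina sets the clock, with control-labelled log2 signals of 5.27, 4.99 and 4.70 and mutant-labelled ones of 6.67, 6.73 and 6.94. Its difference was 1.79 (SE 0.14, adjusted p = 0.0021 from limma), and over all alternatives the adjusted p ran from 0.00035 to the 0.27 of the methods' t-test. *Aanat*, which makes the precursor of melatonin, and the melatonin receptor genes *Mtnr1a* and *Mtnr1b* differed by -0.10, -0.04 and -0.09, and *Asmt* was not analysed here.

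Genes of 3 kinds of signal known to induce *Bhlhe40* or *Per1* were read beside them, and limma called 0 of them, beside 0.363% of all probe sets. The counts at an unadjusted p under 0.05 that follow stand beside 6.07% of all probe sets. Of 11 immediate early genes, which respond to handling and to growth signals, 1 had an unadjusted p under 0.05, *Atf3* (-0.13, adjusted p = 0.82), and the median difference was 0.06. Of 5 glucocorticoid-induced genes, 1 did, *Tsc22d3* (0.15, adjusted p = 0.77), with a median of 0.09. Of 10 hypoxia-induced genes, 2 did, *Vegfa* (-0.18, adjusted p = 0.52) and the glucose transporter gene *Slc2a1* (0.17, adjusted p = 0.78), with a median of -0.04. The methods' t-test called 0 of these genes after adjustment, but it called 0 of all tested probe sets, so this count says nothing about them.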

How the data were processed

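The authors deposited log2 signals, normalized across the 6 arrays, for 35556 probe sets. The submitters' processing notes name Partek; for background correction and summarization, no method is given in the sources used here. A second deposited table lists 100 entries with group means as log2 values, the authors' p-values, a linear ratio and a signed fold score; these last 3 hold the study's own comparison and were not used. Platform annotation gave 23410 probe sets at least 1 symbol, 21789 exactly 1 and 1621 several, and 12146 are unnamed here. Groups and replicate numbers came from the sample labels.

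Groups were compared with limma 3.58.1 (lmFit, eBayes; R 4.3.3) on the log2 values as deposited, without covariates, adjusted by Benjamini-Hochberg over the 23410 named probe sets, threshold 0.05. The statistics section of the methods names a two-tailed t-test, run here as the methods' t-test. The script was tested on simulated data. The number of arrays, 3 per group, limits the precision. Whether the tubes of a group came from separate litters is not stated, and the main fit holds no pairing by harvest. The p-values therefore measure the spread between these tubes only.

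Named genes are the 10, in each of 10 lists up to 3 genes past the threshold in order of p (or the 1 at the lowest p where none passed), and the 5 most similar patterns. *Arntl*, *Rorb*, *Slc2a1*, *Hes1*, *Aanat*, *Mtnr1a*, *Mtnr1b*, markers and neighbours were named after their values were seen. The genes, lists and tests were chosen with earlier results of these data known. Alternatives were all probe sets, no dim probe sets, trended robust variances, array weights, median centring, quantile normalization, a replicate block, the t-test and leaving out each array.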

Additional observations from a re-analysis of the deposited data

How the results depend on the processing

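Chosen by this contrast, *Bhlhe41* had groups that did not overlap. Leaving out an array, weighting arrays or a replicate block could therefore not turn its direction. Its difference was 0.86 to 1.12 without 1 array each, 0.996 after median centring and 0.96 after quantile normalization, which describes its size only. Under every alternative run, 0 of the other 9 genes and 0 of the 22 other clock genes were called. The share called over all tested probe sets was 0.363% in the main fit. *Bhlhe40* ranged from 0.29 to 0.43, with adjusted p-values from 0.13 to 0.77. The signs of the smallest differences were not stable: *Cry1* was -0.0020 with array weights, and without 1 array each *Cry1* ran from -0.047 (without control replicate 1) to 0.088, *Per1* from -0.014 (without mutant replicate 1) to 0.076, *Per3* from -0.067 to 0.015 (without mutant replicate 1) and *Cry2* from -0.089 to 0.0091 (without control replicate 3). The cause was not tested. The count of probe sets higher on the arrays labelled mutant was 35 over all probe sets, unnamed ones included, in place of 66, and that of lower ones 6 in place of 19; more probe sets are adjusted over there. The t-test called 0 and 0. Without 1 array each, 23 to 54 were higher and 3 to 31 lower. Of the genes in the other 5 lists, 2 were called, and 1 over all probe sets, 1 without dim probe sets, 0 by the t-test and 1 to 2 without 1 array each; *Opn4* was called in all of these but the t-test. The labels give same-numbered arrays only a number in common, and a pairing by harvest is neither given nor excluded by them. Deviations of same-numbered arrays from the group means correlated at 0.367, -0.060 and 0.075 for numbers 1, 2 and 3. Array 2 labelled control correlated best with array 3 labelled mutant (0.367). With a replicate block 63 probe sets were higher and 14 lower, and *Bhlhe40* had an adjusted p of 0.13. Each of the 10 genes has 1 probe set, so averaging over a gene's probe sets gave no separate value. *Per2*, *Per3*, *Nr1d1*, *Arntl2*, *Hey2* and *Atf3*, below the median signal, were not in the run without dim probe sets.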
